A study of Mus musculus with 5 samples.

Results

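Galectins are lectins, proteins that bind sugars, and they recognise galactose-containing chains on glycoproteins and glycolipids. Galectin-1 and galectin-2 have a single sugar-binding domain and form dimers, galectin-3 has such a domain behind a long flexible tail, and galectin-4, galectin-8 and galectin-9 carry a pair of linked domains. In the intestine galectin-2, galectin-3 and galectin-4 are known as products of epithelial cells, and galectin-1 is known mainly from connective tissue. The galectins described here are the products of 6 genes, Lgals1, Lgals2, Lgals3, Lgals4, Lgals8 and Lgals9. Every probe set that the platform annotation assigns to one of these symbols was taken, whatever its values, which gave 9 of the 22626 probe sets tested. Lgals1, Lgals2 and Lgals8 have 2 probe sets each, and Lgals3, Lgals4 and Lgals9 have 1 each.

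The tested arrays came from 3 intestinal tumours of Apc1638N mice on a C57Bl6/J background (tumours 16, 18 and 2) and were set against 2 arrays of normal gut epithelium of wild-type animals of that strain (wild types 36 and 62). All animals were labelled as males of 8 months, and the labels name no treatment of either group. The Apc1638N allele ends the Apc protein early, and Apc normally keeps Wnt signalling in check as part of the complex that degrades beta-catenin. Cells were cut out of tissue sections by laser capture, a method that picks areas under the microscope, and both groups were collected as epithelium in this way. The labels do not give the zygosity of Apc, the stretch of intestine or whether each array stands for its own animal, and the normal tissue came from wild-type mice and not from mice with tumours. The p-values therefore measure only the spread between these arrays.

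Values are log2 signals, in which a difference of 1 is a 2-fold difference. Array medians lay between 6.81 and 6.87, and arrays of a group correlated at r of 0.983 or more across probe sets. Among 9 measured epithelial marker genes, 2 were called higher, 1 was called lower and 6 were not called. That is 33.3% called, where 21.7% of all genes were called. The sum of the linear signals of these 9 genes ran from 28062 to 37076 in tumours, against 28378 to 32543 in wild types. The same sum over 14 fibroblast and matrix genes ran from 3870 to 16015 in tumours, against 2133 to 3213 in wild types, and for 10 enterocyte genes from 4695 to 16815 in tumours, against 52096 to 65574 in wild types. For 12 T cell genes it ran from 1105 to 1275 in tumours, against 3123 to 4174 in wild types. Over 7 B and plasma cell genes the sum ran from 3077 to 5359 in tumours, against 13237 to 24819 in wild types. Of these 7 genes 2 were called lower (Jchain and Igha), 0 were called higher and 5 were not called, or 28.6% called. The 3′ minus 5′ difference of the beta-actin control, a sign of RNA integrity, averaged 4.15 in tumours and 2.91 in wild types on the log2 scale. The part of these differences in the values below was not tested, and a smaller number of cells of a type cannot be told apart from less RNA per cell.

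Of the 9 galectin probe sets, 1 rose in tumours (Lgals2), 2 fell (Lgals8 and Lgals9) and 6 did not pass an adjusted p of 0.05 in limma. Among all probe sets 9.58% rose and 8.72% fell, 18.3% in either direction. With 1 probe set per gene, 3 of the 6 genes passed, the same Lgals2, Lgals8 and Lgals9, where 21.7% of 12393 genes passed. Leaving out tumours 16, 18 and 2 in turn gave 0, 1 and 1 called galectin probe sets, and leaving out wild type 36 or 62 gave 0. The call without tumour 18 was that of Lgals9, and the call without tumour 2 was a rise of Lgals1, which did not pass over all arrays. The groups did not overlap in 8 of the 9 probe sets, all except that of Lgals4, and in 47.9% of all probe sets. The changes of 5 galectin probe sets were above 0 and those of 4 below 0, with a median of 0.49, where the median of all probe sets was 0.00. Lgals1, Lgals2 and Lgals8 enter this median by 2 probe sets each. With 1 probe set per gene, Lgals1, Lgals2 and Lgals3 had changes above 0 and Lgals4, Lgals8 and Lgals9 below 0. For the 3 genes with 2 probe sets, both changes had the same sign. No galectin value fell below the 25th percentile of its array, and none was tied within a group. The 5 arrays can be split in 10 ways, so the smallest exact two-sided permutation p of a single probe set is 0.1.

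**Figure D1:**
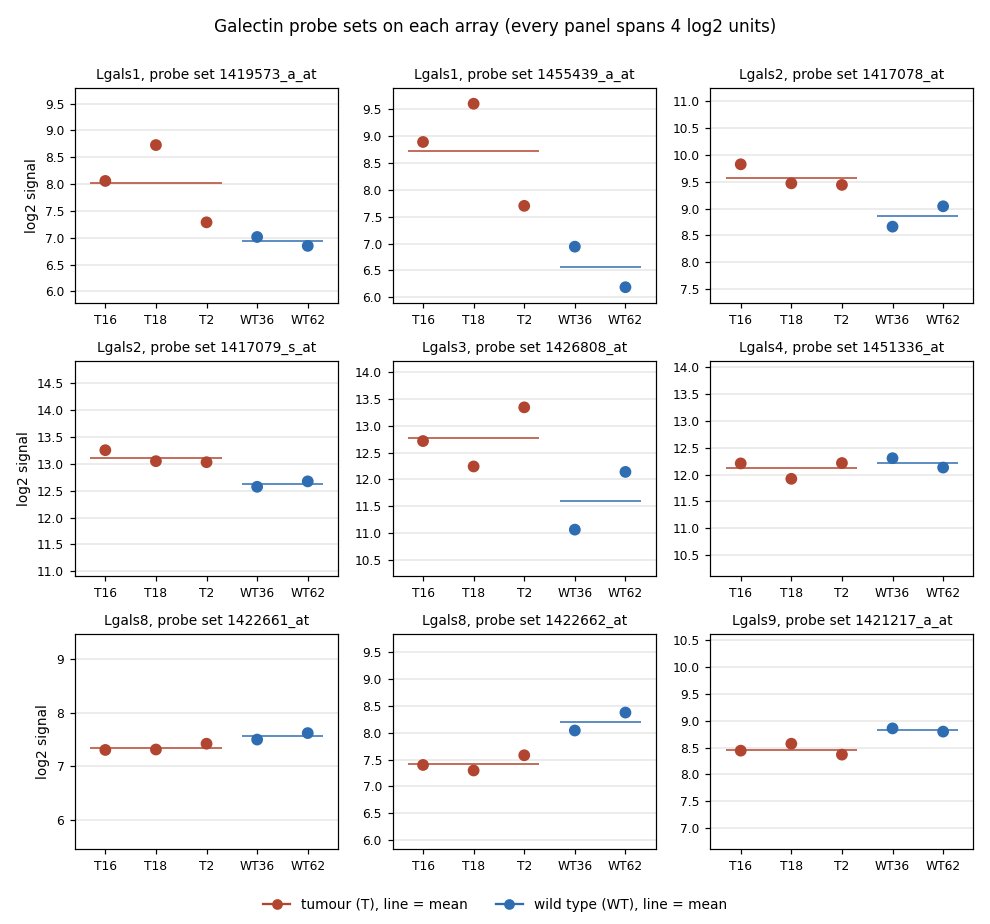
Log2 signal (y axis, 4 units in every panel) of the 9 galectin probe sets on each array (x axis: tumours T16, T18 and T2 in red, wild types WT36 and WT62 in blue), with group means as lines. Tumour points lie above both wild types for Lgals1, Lgals2 and Lgals3, below them for Lgals8 and Lgals9, and for Lgals4 the groups overlap, with tumour 18 lowest.

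Lgals2 encodes galectin-2, a dimer-forming lectin of the gut epithelium. Its probe set 1417079_s_at had log2 signals of 13.25, 13.05 and 13.03 in tumours 16, 18 and 2, against 12.57 and 12.67 in wild types 36 and 62. All 3 tumours lay above both wild types, with tumour 16 the highest. The change was 0.49 (SE 0.09, adjusted p = 0.0337 in limma), a 1.40-fold rise with a 95% interval of 1.19 to 1.66. The second probe set, 1417078_at, read 9.83, 9.47 and 9.44 in tumours 16, 18 and 2, against 8.66 and 9.04 in the wild types. The groups did not overlap there either, and the change was 0.73 (SE 0.18), with an adjusted p of 0.0671 that did not pass. The ending s_at marks a probe set whose probes can also match other transcripts, and the probe set without that ending is the one that did not pass. Their average changed by 0.61 (adjusted p = 0.0392 over genes). The rise of 1417079_s_at kept its direction but lost its call when any single array was left out, with adjusted p-values of 0.0624, 0.0976 and 0.0622 without tumours 16, 18 and 2 and of 0.153 and 0.128 without wild types 36 and 62.

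Some other genes of absorptive cells fell in the same tumours. Of 10 measured enterocyte genes 5 fell, 0 rose and 5 did not pass, with a median change of -2.61, where 10.5% of all genes fell. Without tumours 16, 18 and 2 in turn 4, 3 and 8 fell, and without wild types 36 and 62 only 1 and 0. The fatty acid carrier gene Fabp2 fell by 2.73 (SE 0.42, adjusted p = 0.0205 in limma), while the apolipoprotein genes Apoa1 and Apoa4 had changes of -2.46 and -2.10 that did not pass (adjusted p = 0.174 and 0.234). The median of the enterocyte list stood at -3.50 relative to the wild-type mean in tumour 16, at -2.49 in tumour 18 and at -1.66 in tumour 2. Lgals2 1417079_s_at lay 0.63, 0.43 and 0.41 above its own wild-type mean in those arrays. The 3 genes whose centred pattern over the 5 arrays was most like that of Lgals2 were Stard5, Slc45a3 and Zfp451, at root mean square differences of 0.02, 0.02 and 0.03 log2 units. Their changes were 0.47 (Stard5), 0.51 (Slc45a3) and 0.49 (Zfp451). Because the genes were picked for this likeness, changes near that of Lgals2 follow from the choice and are no separate support. The same holds for the nearest patterns of the other galectins.

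Lgals4 encodes galectin-4, a tandem-repeat lectin that is known for holding enzymes in lipid rafts of the brush border, the microvillus surface of absorptive cells. Its probe set 1451336_at read 12.21, 11.92 and 12.22 in tumours 16, 18 and 2, against 12.31 and 12.13 in wild types 36 and 62. The groups overlapped, and tumour 18 had the lowest value of the 5 arrays. The change was -0.10 (SE 0.12, adjusted p = 0.604 in limma), and its 95% interval of -0.44 to 0.23 covers a tumour level of 0.74 to 1.17 times the wild-type level. With 1 array left out the change lay between -0.19 and -0.01. The closest patterns were those of Ciao3, Tex16 and Mfsd4b5, at 0.03, 0.04 and 0.04 log2 units, and Tex16 and Mfsd4b5 each held 1 identical value on 3 of the 5 arrays.

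Several brush border enzyme genes fell, while Lgals4 did not pass. Of 14 measured genes in that list 8 fell, 0 rose and 6 did not pass, or 57.1% called. Among all genes 21.7% were called and 10.5% fell. The median change of the list was -0.93, where the median of all genes was 0.00. The largest falls were those of the peptidase genes Enpep (-5.41), Mme (-4.52) and Dpp4 (-3.75) and of the lactase gene Lct (-4.41), with adjusted p-values of 0.0106, 0.0262, 0.00525 and 0.0280 in limma. The other probe sets of Mme and Dpp4 had smaller changes, -2.01 and -1.81. Gal3st1, whose enzyme adds the sulfate of sulfatide, a glycolipid that galectin-4 binds, fell by 0.65 (SE 0.09, adjusted p = 0.0170). Without tumours 16, 18 and 2 in turn 4, 6 and 6 genes of the list fell, and without wild types 36 and 62 there were 2 and 0. The 6 that did not pass, like Lgals4, were the lipid enzyme genes Ugt8a (-0.10), Fa2h (-0.08), Ugcg (-0.29) and Cers2 (-0.30) and the annexin complex genes Anxa2 (0.62) and S100a10 (0.40). No test was made of whether Lgals4 differed from these genes.

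Lgals3 encodes galectin-3, the chimera-type galectin, which in mouse was first known as the macrophage antigen Mac-2 and is also made by intestinal epithelium. Probe set 1426808_at read 12.72, 12.24 and 13.34 in tumours 16, 18 and 2, against 11.06 and 12.14 in wild types 36 and 62. All tumours lay above both wild types, but the gap between tumour 18 and wild type 62 was only 0.10 on the log2 scale. The wild types differed from each other by 1.08 and the tumours spanned 1.10, so the mean change of 1.16 (SE 0.49) was close to the spread within each group. It did not pass (adjusted p = 0.194 in limma, 95% interval -0.16 to 2.49). Without wild type 36 the change was 0.63 (adjusted p = 0.558) and without wild type 62 it was 1.70 (0.187), while leaving out tumours 16, 18 and 2 gave 1.19, 1.43 and 0.88. The closest patterns were those of the small GTPase gene Rhob (0.21 log2 units), Mboat1 (0.26) and the keratin gene Krt19 (0.27). Krt19 passed with a rise of 1.20 (adjusted p = 0.0411), and Rhob and Mboat1 did not.

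Of 15 measured macrophage and myeloid genes 1 rose (Cd14, by 0.94), 1 fell (Ctss, with a change of -1.59) and 13 did not pass, with a median change of 0.10. That is 13.3% called, where 21.7% of all genes were called. The summed linear signal of the 15 genes was 3405, 5093 and 3516 in tumours 16, 18 and 2, against 5111 and 4235 in wild types 36 and 62, so the groups overlapped. Tumour 2, the highest for Lgals3, was near the bottom of that range, and tumour 18, the lowest tumour for Lgals3, near the top. Lyz2, the lysozyme gene of myeloid cells, had the largest change above 0 of the list, 1.67, with all tumours above both wild types, and missed the threshold (adjusted p = 0.0502 in limma). The part of macrophage RNA in the Lgals3 values was not tested. The myeloid genes Itgam and Aif1 were in the dimmest 25% of probe sets on every array.

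Lgals1 encodes galectin-1, a dimer-forming lectin known for inducing death or silence in activated T cells. Its probe set 1455439_a_at read 8.89, 9.61 and 7.70 in tumours 16, 18 and 2, against 6.94 and 6.19 in wild types 36 and 62. The second probe set, 1419573_a_at, read 8.06, 8.73 and 7.29 in the same tumours, against 7.01 and 6.85 in the wild types. Both probe sets put the arrays in the same order, with tumour 18 first, then tumours 16 and 2, wild type 36 and wild type 62. The changes were 2.17 (SE 0.65, 95% interval 0.39 to 3.95) and 1.09 (SE 0.46, -0.16 to 2.34). Neither passed (adjusted p = 0.0988 and 0.195 in limma), with 1.90 and 1.44 log2 units between the lowest and the highest tumour. The change of 1455439_a_at passed when tumour 2 was left out (2.68, adjusted p = 0.0498) and was 1.73 without tumour 18 (0.197). It also passed when probe sets with tied values were left out of the fit (adjusted p = 0.0416).

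The summed signal of the fibroblast and matrix genes ordered the arrays in the same way as Lgals1. This summed linear signal was 8726, 16015 and 3870 in tumours 16, 18 and 2, against 3213 and 2133 in wild types 36 and 62. All 14 measured genes of that list had their highest value in tumour 18. The whole order of Lgals1 was found in 7 of them, among them Col1a2, Col3a1 and Dcn, and the other 7 departed from it or held ties (Col6a1, Col6a2, Lum, Pdgfra, Thy1, Fn1 and Vim). Only Dcn passed, with a rise of 2.60 (adjusted p = 0.0363 in limma), while the collagen genes Col1a2 and Col3a1 had changes of 2.32 each (0.135 and 0.202). Without tumour 2, 5 of the 14 rose, and without tumour 16, wild type 36 or wild type 62 none did. The genes with the pattern most like that of Lgals1 were Fkbp9 (0.10 log2 units), the gap junction gene Gja1 (0.11) and the basement membrane collagen gene Col4a1 (0.24), and none of the 3 passed. Smooth muscle genes had 1 of 9 called, Acta2, which rose by 1.22, and endothelial genes 0 of 10 with a median change of 0.01. The shares called were 7.14% for fibroblast and matrix, 11.1% for smooth muscle and 0% for endothelial genes, where 21.7% of all genes were called. The part of stromal RNA in the Lgals1 values was not tested.

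**Figure D2:**
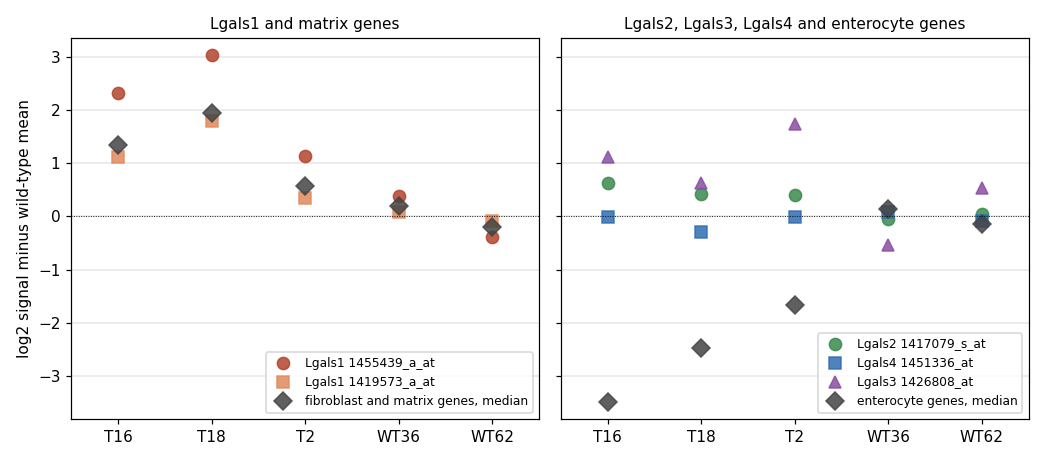
Deviation from the wild-type mean (y axis, log2 units) on each array (x axis, tumours T16, T18 and T2 left of wild types WT36 and WT62); marker diamonds are medians over the listed genes. On the left Lgals1 and the median of the 14 fibroblast and matrix genes share the order of arrays, and on the right Lgals2, Lgals3 and Lgals4 stay between -0.54 and 1.74 while the 10 enterocyte genes reach -3.50 in tumour 16.

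Lgals1 and Lgals2 lie close together on mouse chromosome 15, with 3 protein-coding genes between them in the RefSeq gene table of GRCm38.p6. These genes were looked up after the galectin values were seen. They are Gga1, Sh3bp1 and Pdxp, with changes of -0.05, -0.06 and 0.06 and adjusted p-values of 0.614, 0.353 and 0.399 in limma, so none passed.

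Lgals8 encodes galectin-8, a tandem-repeat lectin that marks damaged endosomes for autophagy. Its probe set 1422662_at read 7.40, 7.30 and 7.58 in tumours 16, 18 and 2, against 8.04 and 8.38 in wild types 36 and 62. All tumours lay below both wild types. The change was -0.78 (SE 0.14, adjusted p = 0.0335 in limma), a 1.72-fold fall, with the tumour level at 0.44 to 0.76 of the wild-type level by the 95% interval. The second probe set, 1422661_at, read 7.31, 7.32 and 7.42 in the tumours, against 7.50 and 7.62 in the wild types. It was also lower in every tumour, but its change was -0.21 (SE 0.06, adjusted p = 0.0929) and did not pass. Their average changed by -0.50 (adjusted p = 0.0321 over genes). The fall of 1422662_at lost its call without any one array, with adjusted p-values of 0.129, 0.110 and 0.0549 without tumours 16, 18 and 2 and of 0.0774 and 0.129 without wild types 36 and 62, and with changes between -0.95 and -0.62. The most similar patterns were those of Copb2, which encodes a coat protein of Golgi vesicles (0.02 log2 units), the kinase gene Cdk11b (0.03) and Selenot (0.03). Their changes of -0.77, -0.75 and -0.81 follow from that choice.

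Lgals9 encodes galectin-9, a tandem-repeat lectin that is inducible by interferon and binds the T cell surface protein Tim-3. Its probe set 1421217_a_at read 8.44, 8.57 and 8.37 in tumours 16, 18 and 2, against 8.86 and 8.80 in wild types 36 and 62. The groups did not overlap, with a gap of 0.23 between tumour 18 and wild type 62. The change was -0.37 (SE 0.07, adjusted p = 0.0407 in limma), a 1.29-fold fall with the tumour level at 0.68 to 0.89 of the wild-type level. The call held without tumour 18 (adjusted p = 0.0493) and was lost without tumour 16 (0.145), tumour 2 (0.0723), wild type 36 (0.170) or wild type 62 (0.147). The most similar patterns were those of Elmod3 (0.02 log2 units), the glycolytic enzyme gene Pgam1 (0.03) and Nat9 (0.03). Havcr2, which encodes Tim-3, was in the dimmest 25% of probe sets on every array. Of 12 measured T cell genes 6 fell, 0 rose and 6 did not pass, with a median change of -0.55, where 10.5% of all genes fell. The 6 that fell were Ccl5, Gzma, Klrd1, Cd3g, Gzmb and Itgae, with changes from -3.40 for Ccl5 to -0.83 for Itgae. Cd3d, Cd3e, Cd4, Cd8a, Cd8b1 and Cd2 did not pass, with changes of -0.27, -0.25, -0.09, -0.09, 0.05 and -0.10. Leaving out tumours 16, 18 and 2 in turn left 2, 3 and 4 called, and leaving out wild types 36 and 62 left 4 and 0. The part of T cell RNA in the fall of Lgals9 was not tested.

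**Figure D3:**
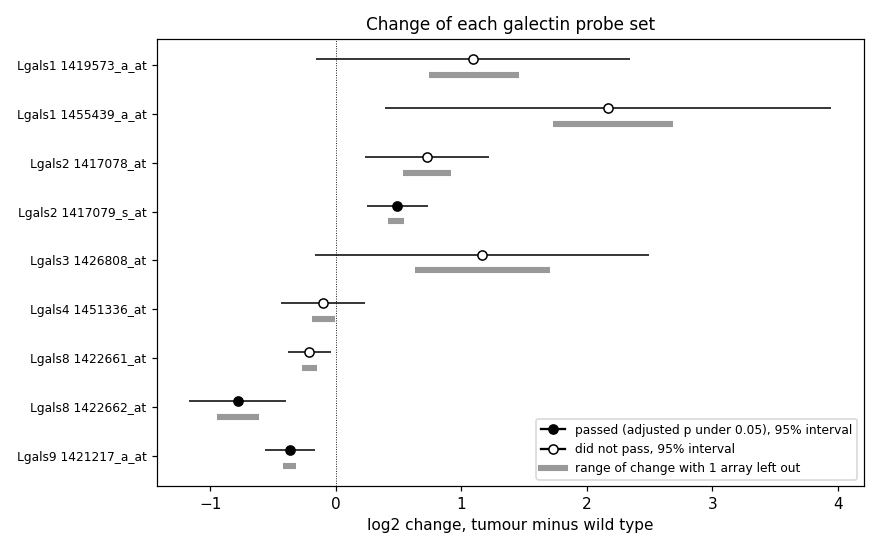
Log2 change of each galectin probe set, tumour minus wild type (x axis), with its 95% interval (black) and the range of the change when 1 array is left out (grey). Filled points mark the 3 probe sets that passed, of Lgals2, Lgals8 and Lgals9, and the grey bars stay on the side of the full change for all 9.

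Promoters are shown for the 3 genes with a probe set that passed, as given by RefSeq for GRCm38.p6, from 250 bases before the start of the gene to 50 after it. Of the 6 genes 5 had an entry, and Lgals1 is named only. The windows are chr15:78855480-78855779 on the minus strand for Lgals2, chr13:12461689-12461988 on the minus strand for Lgals8 and chr11:78984875-78985174 on the minus strand for Lgals9. They run 5′ to 3′ along the gene, and capitals mark the letters of the motifs searched.
Lgals2: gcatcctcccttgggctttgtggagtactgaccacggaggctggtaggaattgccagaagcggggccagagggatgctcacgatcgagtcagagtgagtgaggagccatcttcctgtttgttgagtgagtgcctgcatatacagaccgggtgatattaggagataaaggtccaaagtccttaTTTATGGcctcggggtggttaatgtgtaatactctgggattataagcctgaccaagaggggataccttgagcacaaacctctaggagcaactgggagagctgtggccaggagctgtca
Lgals8: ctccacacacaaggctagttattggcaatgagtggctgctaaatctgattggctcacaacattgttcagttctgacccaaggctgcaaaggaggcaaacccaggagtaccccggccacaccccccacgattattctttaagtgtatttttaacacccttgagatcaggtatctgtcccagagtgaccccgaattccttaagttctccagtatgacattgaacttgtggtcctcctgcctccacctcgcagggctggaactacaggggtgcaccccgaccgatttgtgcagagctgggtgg
Lgals9: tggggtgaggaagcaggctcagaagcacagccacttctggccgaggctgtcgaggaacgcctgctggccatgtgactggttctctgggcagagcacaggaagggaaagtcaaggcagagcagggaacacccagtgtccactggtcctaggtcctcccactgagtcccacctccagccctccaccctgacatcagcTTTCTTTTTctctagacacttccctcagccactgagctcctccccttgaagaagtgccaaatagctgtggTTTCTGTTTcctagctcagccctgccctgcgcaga
The motifs were chosen after the galectin values and the windows had been seen. The TATA box was searched as TATAAA. The site of TCF/LEF factors, which act in Wnt signalling, was searched as CTTTGAT. The site of CDX factors, homeobox proteins of the intestine, was searched as TTTATNG. The site of HNF4A, a nuclear receptor of liver and gut, was searched as CAAAGTCCA. The GC box of SP1 was searched as GGGCGG, and the core of the interferon-stimulated response element as TTTCNNTTT. Both strands were read, and no matches overlapped. The Lgals2 window held 1 match, the CDX letters from base -68, which 10.9% of 32851 promoters hold. The Lgals9 window held the interferon-element letters at 2 places, from base -55 and from base 16, and 10.6% of promoters hold them at 1 place or more. This element was first searched in a longer form, and the result of that search is not given here. The Lgals8 window held none of these motifs. Among the genes that did not pass, the Lgals3 window held GC boxes at 2 places and the Lgals4 window at 1. Of all promoters 35.7% hold the GC box at 1 place or more. Neither the Lgals3 nor the Lgals4 window held the CDX letters. TATAAA stands in 13.6%, CTTTGAT in 3.73% and CAAAGTCCA in 0.475% of promoters and in none of the 5 galectin windows. A match of letters is a description, and binding was not measured here.

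Over all genes 11.3% rose and 10.5% fell, and the lists of genes around the galectins are given beside these shares. Of 5 further galectin family genes 3 were measured, 0 rose, 1 fell and 2 did not pass, with a median change of -0.23. Lgals12, known from fat cells, fell by 0.23 in the probe set that stands for the gene, 1417687_at (adjusted p = 0.0163 in limma over genes), with log2 signals of 6.90, 6.92 and 6.92 in tumours 16, 18 and 2, against 7.13 and 7.15 in the wild types. Its other probe set, 1417686_at, had the opposite change of 0.24 and also passed (adjusted p = 0.0440 over probe sets), so the gene has no settled direction. Lgals7, the galectin of stratified epithelium, had a change of 0.21 and Lgalsl, a galectin-like gene, one of -0.54, and neither passed.

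Most genes listed as partners or receptors of galectins did not pass. Of 26 measured partner genes 2 rose, 4 fell and 20 did not pass, with a median change of -0.04. The share called, 23.1%, is close to the 21.7% of all genes. The hyaluronan receptor gene Cd44 rose by 3.69 (SE 0.16, adjusted p = 0.00450 in limma) and the TGF-beta receptor gene Tgfbr2 by 1.39 (SE 0.21, 0.0195). The glucose transporter gene Slc2a2 fell by 5.41 (SE 0.34, 0.00524). Ptprc, which encodes the leukocyte antigen CD45 that galectin-1 binds, fell by 1.94 (SE 0.13, 0.00556). The other probe set of Cd44 had a smaller change of 0.83, and other probe sets of Tgfbr2 had changes of -0.08 and -0.02. Lgals3bp, a secreted binding partner of galectin-3, had a change of -0.16 that did not pass. Without tumours 16, 18 and 2 in turn 2, 2 and 3 partner genes fell and 1 rose each time, without wild type 36 there were 0 and 2, and without wild type 62 none passed.

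Genes that serve to build the galactose-bearing chains mostly did not pass. Of 27 measured genes 7 fell, 0 rose and 20 did not pass, with a median of -0.04. The share called, 25.9%, is close to the 21.7% of all genes called, and 10.5% of all genes fell. The largest change above 0 was that of Slc35a2, 0.66, which did not pass (adjusted p = 0.0595 in limma). C1galt1c1, the chaperone of the core 1 O-glycan enzyme, fell by 1.22 (SE 0.18, adjusted p = 0.0198 in limma), and the core fucose enzyme gene Fut8 fell by 0.70 (SE 0.08, 0.0106). Slc35a3, a Golgi carrier of UDP-N-acetylglucosamine, fell by 0.63 (0.0194) and B3gnt2, an enzyme of poly-N-acetyllactosamine, by 0.59 (0.0277). Other probe sets of C1galt1c1, B3gnt2 and Slc35a3 had changes of -0.01, 0.08 and -0.30. Without tumours 16, 18 and 2 in turn 0, 1 and 5 of these genes fell, and without wild types 36 and 62 there were 1 and 0. Among 21 genes for caps on such chains 1 rose, 3 fell and 17 did not pass, 19% called, with a median of -0.03. The sialyltransferase gene St3gal4 fell by 2.29 (SE 0.07, 0.00416) and B4galnt1, a ganglioside enzyme gene, had a called change of -1.52 (SE 0.25, 0.0237). Gal3st1, counted in this list too, is the third that fell, while St3gal3 rose by 0.69 (SE 0.04, 0.00525). Other probe sets of St3gal3 and B4galnt1 had changes of -0.09 and -0.21 that did not pass. St6gal1, whose alpha-2,6 sialic acid is known to block galectin-1 binding, had a change of -0.72 that did not pass. Without tumour 16, tumour 18 or wild type 36 only 1 capping gene fell, and without wild type 62 none did.

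**Figure D4:**
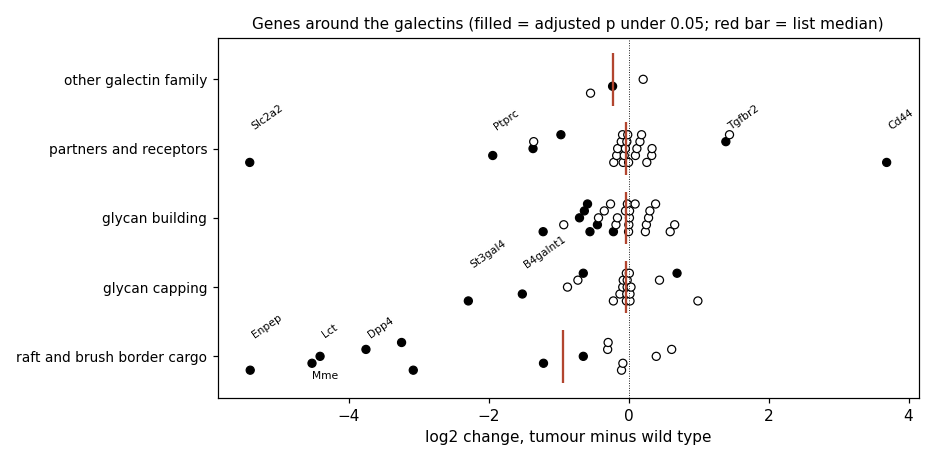
Log2 change of each measured gene, tumour minus wild type (x axis), in the 5 lists around the galectins (rows); filled points passed and red bars are list medians. Called points lie on both sides for partners and caps and only below 0 for chain building and for brush border cargo, whose median is -0.93.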

How the data were processed

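Expression was measured on 5 Affymetrix arrays, 3 of tumour and 2 of wild-type epithelium, grouped by the titles in the labels. The table deposited by the authors holds log2 values of 22690 probe sets, a scale inferred from their range of 3.38 to 14.3. Per the submitters' processing notes it was made with the R package affy, and background correction, normalization and summary method are not given in the sources used here, so values were used as deposited. The 64 control probe sets were set aside. By GEO's annotation of the platform, 20380 probe sets had 1 symbol, 691 several and 1555 none. Values were identical in all 3 tumours for 1042 probe sets and in both wild types for 1716, which lowers their estimated spread.

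Differences were tested two-sided with limma 3.58.1 (R 4.3.3), by lmFit and eBayes with group as the only term, 3 residual and 1.19 prior degrees of freedom, with Benjamini-Hochberg adjustment over 22626 probe sets. For lists and for 1 value per gene, the brightest probe set stood for each of 12393 genes, with adjustment over genes. SE is limma's moderated standard error. Probe sets are given without coordinates, since no build is named for the array. Precision is limited by the number of arrays. The steps were tested on simulated data. Of the promoter motifs, an HNF1 site was also searched and is not given, and the interferon element was first searched in a longer form. The galectins and all lists were chosen with earlier results of these data known. Genes are named by rule: every galectin probe set, the 3 nearest patterns of each gene, up to 4 called genes of each list with the largest changes plus the largest against the majority, and up to 3 of the brightest markers. Further list members were named to complete a description, as were genes given as dim or as exceptions to a list's count. These members were Lgals7, Lgalsl, Lgals3bp, Havcr2, St6gal1, Slc35a2, Cd14, Lyz2, Dcn, Itgam, Aif1, Klrd1, Cd3g and Itgae. Alternatives were quantile normalization, median centring, 3 filters on probe sets, eBayes with trend and robust settings, weights for arrays, a minimum of 2-fold, the mean over probe sets and leaving out each array.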

Additional observations from a re-analysis of the deposited data

How the results depend on the processing

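Over the 9 galectin probe sets, 122 changes were recomputed under these alternatives, and 0 changed direction. Of these, 96 stayed on the same side of the threshold, 18 lost a call and 8 gained one. The count of galectin probe sets that rose, 1 as reported, was 2 with median centring and when the dimmest 40% of probe sets were dropped, 3 with tied probe sets left out, and 0 with trend and robust settings, when shared-target probe sets were dropped (among them Lgals2 1417079_s_at) and with a 2-fold minimum. The count that fell, 2 as reported, was 1 with quantile normalization and with trend and robust settings, and 0 with a 2-fold minimum. The count of galectin genes called in the fit over genes, 3 as reported, was 1 with quantile normalization and 0 with a 2-fold minimum. This gene count was 4 once probe sets holding ties were removed, 2 once shared-target probe sets were removed, and 2 under trend and robust settings. Leaving out 1 array gave 0 to 1 rising and 0 to 1 falling probe sets and 0 to 2 called genes. Without wild type 62 limma called 0 of 22626 probe sets, with 6682 at an unadjusted p under 0.05, and a group left with 1 array is assumed to vary like the other. Under quantile normalization Lgals2 1417079_s_at changed by 0.43 (adjusted p = 0.156) and Lgals9 by -0.32 (0.0541). Leaving out 1 array gave 0 rising and 0 to 1 falling genes of the other galectin family, 0 to 2 and 0 to 3 partner genes, 0 to 1 and 0 to 5 chain building genes, 0 to 2 and 0 to 3 capping genes and 0 and 0 to 6 brush border genes. With the mean of all probe sets 0 other galectin family genes fell, and 2 capping genes rose, as also with median centring. The causes were not tested. No paired analysis was possible because the groups share no replicate number.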
